A study of Mus musculus with 2 samples.

Results

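Spliced transcript models that lack the 5′ end of an annotated transcript were examined in mouse adrenal gland RNA. The deposited tables class such a model as an incomplete splice match of the Suffix kind: its introns are the last introns of a longer transcript, in unbroken order up to the 3′ end. A model was taken when it had this class, at least 2 exons and at least 5 reads. This gave 1014 of the 98236 models of replicate 1 and 899 of the 86472 models of replicate 2. Both libraries together held 1663 distinct intron chains in 1046 genes, where an intron chain is the set of all introns of a model with its chromosome and strand. The selection used class, exon number and read count, so the counts of models and their read numbers are descriptions.

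The study read RNA of adrenal gland tissue from wild-type C57BL/6J mice of the Jackson Laboratory as long cDNA molecules, in 1 group of 2 libraries. The labels give no treatment, no genotype other than wild type and no time. The libraries carry the numbers of biological replicates 1 and 2. Each has its own biosample, but both point to the same donor record, and differences between them may include technical ones. The tissue is called male in one field, sex is otherwise entered as not collected, and age is unknown.

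The 5′ end of a messenger RNA is set by the promoter from which transcription began, and many genes have several promoters, some of them within the gene and upstream of a later exon. Copying of messenger RNA into cDNA commonly starts at the poly(A) tail and proceeds towards the 5′ end, so a copy can end before that end is reached. A model that lacks the leading exons can stand for either kind of molecule, and the tables do not record which. In the adrenal gland, the cortex makes steroid hormones from cholesterol and the medulla makes catecholamines and stores them in granules with granins and neuropeptides.

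The libraries were not alike in depth or in what they read. Replicate 1 held 848782 reads and replicate 2 held 545229, so 1 read was worth 1.18 and 1.83 CPM (reads scaled to a library total of 1000000). Known transcripts of at least 3 exons and under 1000 bases had 130096 reads in replicate 1 and 6876 in replicate 2. All 5 markers of cortex cells and all 5 of chromaffin cells were read in both libraries, while the 5 kidney and 3 liver markers had 0 reads, which at 3 counts allows up to 3.53 CPM in replicate 1 and 5.50 CPM in replicate 2. The chromaffin markers summed to 10093 and 23122 CPM in replicates 1 and 2, with Chga, Chgb and Dbh higher in replicate 2 but Th, at 2831 and 1489 CPM, and Pnmt, at 694 and 160 CPM, lower. The 3 adipocyte markers summed to 201 and 42.2 CPM. The part of these differences in the results that follow was not tested. Intervals given with shares are exact Clopper-Pearson 95% intervals. They cover counting error only, since reads without molecular identifiers are not independent molecules, and models of 1 gene share their source.

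The sequences across the break between what is missing and what is kept show where the most abundant models begin. For the 8 chains of highest mean CPM that were selected in both libraries and began over 500 bases from every annotated start of their gene, the last 15 bases of the missing exon are in lower case and the leading 15 bases of the kept exon in capitals. The letters are from the GENCODE M21 transcript sequences (mm10), 5′ to 3′ on the strand of the gene.
Hsd3b1, 4-exon model: gcggctgctgcacagGAATAAAGGACATAA
Hsd3b1, 3-exon model: gcggctgctgcacagCCCTCCTAAGGGTTA
Hao2, 5-exon model: agagcacagctaaagCTGCTCAGAAGGCCA
Hao2, 4-exon model: cgatcccctggagagAGCAAGTCTGGACTT
Chgb, 2-exon model: aagtcctgaagaagaGTGGAAAAGAGGTCA
Psmc2, 12-exon model: accaccaatctctagACAACCCTTCCTCCC
Cdc42, 5-exon model: ggcggagaagctgagGACAAGATCTAATTT
Star, 4-exon model: aaggaaagccagcagGAGAACGGGGACGAA

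In all 8 of these chains the model began at the leading capital in both libraries, so the deposited start was exactly the 5′ border of an annotated exon. Set against Hsd3b1-202 and Hsd3b1-201, the 4-exon and 3-exon models lack the same exon, which ends at position 98859672 on the minus strand of chromosome 3. In these transcripts that exon is joined to the kept exons at different acceptor sites. At the most, over all annotated longer transcripts, the 3-exon model lacks 2 introns. The kept exon lies at chr3:98858152-98858341 in the 4-exon model and at chr3:98857820-98858026 in the 3-exon model. The kept exon of Hao2 lies at chr3:98881804-98882087 in the 5-exon model and at chr3:98880335-98880544 in the 4-exon model, both on the minus strand. The others are Chgb at chr2:132792330-132794095, Psmc2 at chr5:21786650-21786884 and Star at chr8:25810945-25811103 on the plus strand, and Cdc42 at chr4:137335975-137336129 on the minus strand.

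Abundant members with a RefSeq start within 100 bases of their own start, in at least 1 library, are shown by their promoters. For Dhcr7, Prkar1a and Slc25a3, which are among the 8 most abundant chains that began within 100 bases of an annotated start in both libraries, and for Psmc2, the 100 bases before the RefSeq start are in lower case and the 20 bases from that start on are in capitals. The letters are from RefSeq on build GRCm38.p6.
Dhcr7, chr7:143830114-143830233, plus strand: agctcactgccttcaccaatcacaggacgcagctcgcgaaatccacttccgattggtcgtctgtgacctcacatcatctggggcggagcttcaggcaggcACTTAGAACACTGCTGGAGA
Prkar1a, chr11:109650442-109650561, plus strand: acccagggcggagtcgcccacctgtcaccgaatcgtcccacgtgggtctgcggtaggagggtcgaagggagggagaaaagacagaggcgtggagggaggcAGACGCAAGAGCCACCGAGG
Slc25a3, chr10:91123948-91124067, minus strand: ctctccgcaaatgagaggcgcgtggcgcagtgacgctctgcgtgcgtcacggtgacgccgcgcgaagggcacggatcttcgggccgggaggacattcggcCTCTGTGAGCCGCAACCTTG
Psmc2, chr5:21786647-21786766, plus strand: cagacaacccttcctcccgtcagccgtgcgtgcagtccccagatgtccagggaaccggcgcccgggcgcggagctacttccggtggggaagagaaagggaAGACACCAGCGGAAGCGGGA

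The Prkar1a model began 33 bases and the Slc25a3 model 12 bases downstream of the RefSeq start in both libraries. The Dhcr7 model began 137 bases upstream of it in replicate 1 and 20 bases downstream in replicate 2. The Psmc2 model, which began at the border of the exon GENCODE numbers 2, lay 97 bases upstream of the RefSeq start. That RefSeq start is therefore inside the kept exon, while the start GENCODE gives for Psmc2 lies 1367 bases upstream of the model. The other chains of the abundant set at annotated starts were Atp5f1, Pld3, Eef1a1, Tspan12 and Serping1. The motif TATAAA, searched on the strand of the gene in the 50 bases before a RefSeq start, is absent from these 4 windows. It was held by 1 of 76 and 1 of 71 RefSeq promoters within 100 bases of a member start in replicates 1 and 2, and by 2.63% of all 32851 RefSeq promoters. On either strand it was held by 2 of 76, 2 of 71 and 3.50%.

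Most members began exactly on a position that the annotation already holds. In replicate 1, 36% of members (365 of 1014, interval 33.0 to 39.0) began within 100 bases of an annotated start of their gene, and in replicate 2 34.0% (306 of 899, 30.9 to 37.2), a mean of 35.0% ± 1.38 (SD, n = 2). Another 51.4% and 49.9% began exactly at the 5′ border of a later annotated exon. Inside an exon began 9.17% and 12.9%, and in an intron or outside every exon of the gene 2.86% and 3.11%. The remaining 6 members of replicate 1 belonged to genes without annotation. The annotated start or an exon border was matched to the base by 87.2% of members of replicate 1 and 83.9% of replicate 2, and only 7 and 3 members lay 1 to 100 bases from an annotated start. A model's start is shared by all its reads and is not the start of a single read. Whether the model builder moved starts onto annotated positions was not tested.

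The position of the start was compared with that of the other kinds of spliced model with at least 5 reads. An annotated start within 100 bases was found for 36% and 34.0% of members, against 98.8% and 97.7% of Prefix models, which lack the 3′ end. It was found for 96.4% and 97.6% of models that join known splice sites in an unannotated way, and for 85.5% and 86.0% of models with an unannotated splice site. At the 3′ end the order was another one: 88.2% and 87.1% of members ended exactly at an annotated 3′ end, against 27.8% and 37.9% of Prefix models, 86.5% and 85.2% of unannotated combinations and 75.7% and 79.7% of models with an unannotated splice site. The classes are defined by introns and splice sites, and the position of the start was not used to select models. By definition, though, Suffix models lack the leading introns and Prefix models the final ones. No test was made over models, since models of the same gene share their source.

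**Figure D1:**
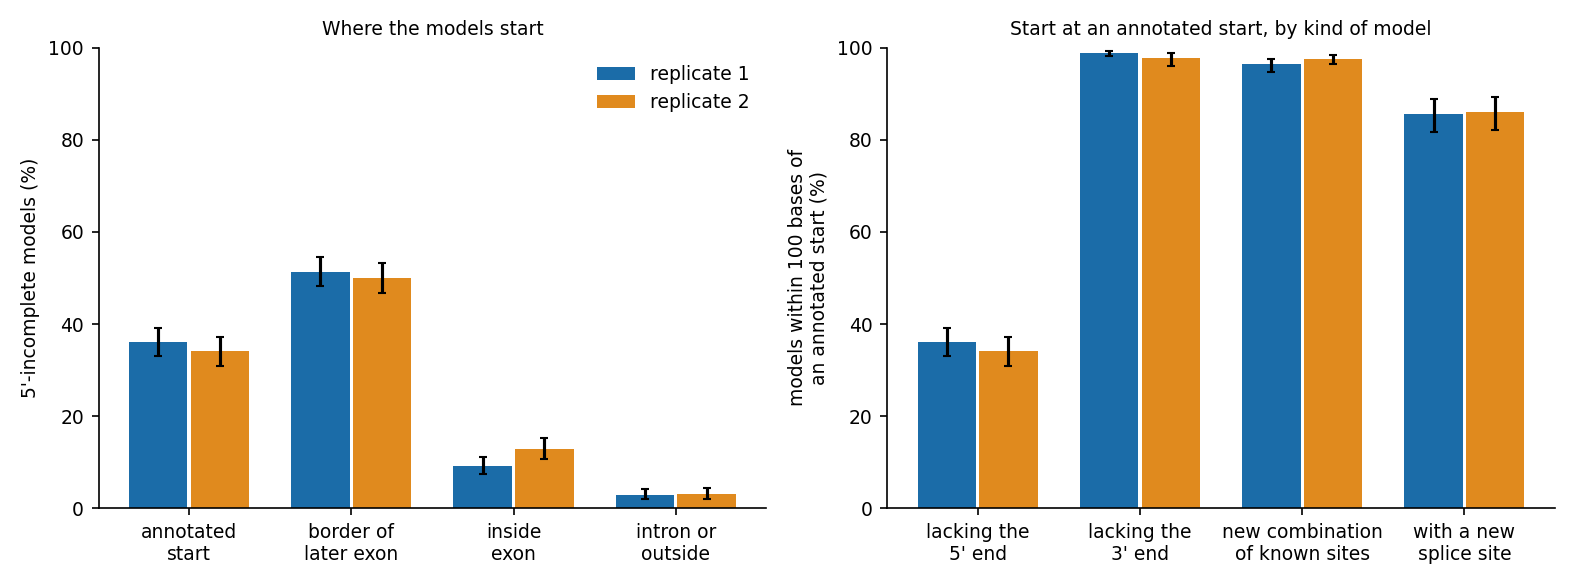
Left, share of 5′-incomplete models by where they begin, in percent of the 1014 models of replicate 1 and 899 of replicate 2. Right, share of models within 100 bases of an annotated start for 4 kinds of spliced model with at least 5 reads; bars are libraries and error bars exact 95% intervals. About 35.0% of 5′-incomplete models began there, against 85.5% or more of every other kind shown.

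Many of the annotated starts in question are not starts of full coding transcripts. Of the 358 and 303 members exactly at an annotated start, 113 and 125 shared it with a coding transcript whose start is annotated as complete. Another 210 and 145 shared it only with transcripts of another biotype or of mixed annotation, such as retained-intron transcripts. For 35 and 33 the annotation marks the start of every transcript there as not found. The leading intron of the model was also the leading intron of a transcript with that start in 152 and 145 cases. RefSeq starts were matched for 282 and 233 members of the annotated-start class and lay within 100 bases of 81 and 72 of them. Of members at an exon border, 1 of 413 and 2 of 361 lay within 100 bases of the RefSeq start. That class holds only starts over 100 bases from every GENCODE start of the gene. Where RefSeq and GENCODE share a start, such a match was excluded in advance, so the low count is partly set by the class.

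Members that began inside an exon allowed the letters at the start to be read. A pyrimidine before the start and a purine at it were found in 16 of 85 such members of replicate 1 (18.8%, interval 11.2 to 28.8) and in 13 of 102 of replicate 2 (12.7%, 6.96 to 20.8). Of all neighbouring base pairs of the same longer transcripts, 21.9% read pyrimidine then purine in each library.

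How much of the transcript was missing varied widely. A longer annotated transcript was found for 967 and 848 members, and the other 47 and 51 were the end of a longer model that the annotation does not hold. At the fewest, the median number of missing introns was 2 in each library, with quartiles of 1 and 5, and weighted by reads it was 1. Exactly 1 intron was missing in 46.5% and 47.5% of members, 3 to 5 in 19% and 18.9%, and over 5 in 22.4% and 23.0%. The members with an annotated start lacked exactly 1 intron in 64.2% and 69.1% of cases, those at an exon border in 40.1% and 37.2%. The model that lacked the most was an Ubr4 model of 6 exons in replicate 1, which had 8 reads, lacked 100 introns of a transcript of 106 exons and was not seen in replicate 2. Ubr4 is a very large ubiquitin ligase. In replicate 2 the most was 39 introns, in an 18-exon model of the cytoskeletal linker talin, Tln1, with 10 reads there and 2 in replicate 1.

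In bases, only what lay before the start of the model was counted as lost, and bases lacking at the 3′ end were not. By this count members kept a median of 75.3% of the longer transcript in replicate 1 (quartiles 54.5 and 90.6) and 84.4% in replicate 2 (70.0 and 93.9). The transcripts behind them were longer in replicate 2, with medians of 2099 and 3283 bases in replicates 1 and 2, and so were the models, with medians of 1407 and 2619 bases. The annotated coding start lay inside the model, for every longer transcript with a complete coding start, in 234 of 952 members (24.6%, interval 21.9 to 27.4) and 239 of 836 (28.6%, 25.6 to 31.8). Among those at an annotated start it was kept in 41.0% and 54.5%, and among those at an exon border in 18.2% and 19.3%. Counted by reads, 54.7% and 47.7% kept the coding start, and without Hsd3b1 and Hao2 34.7% and 39.0%.

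The description as lacking the 5′ end did not hold for every member. Set against the longer transcript with the most known reads, the leading exon of the model began exactly at the border of the matching exon in 52.8% and 50.5% of members, and inside that exon in 18.8% and 22.5%. It reached into the preceding intron in 15% and 15.3%. In 129 of 967 members (13.3%, interval 11.3 to 15.6) and 99 of 848 (11.7%, 9.59 to 14.0) it ran over the whole of the preceding intron and into an exon counted as missing. Such a model holds more of the 5′ part than the class name says and reads the intron as exon. Of these, 86.8% and 82.8% began at an annotated start, and their exon ran over the border by a median of 347 and 642 bases. Models that reached only into the intron began at an annotated start in 77.9% and 72.3%, those at the border in 2.94% and 2.10%. Npy, Gnas and Slc25a3 each had an abundant model of the kind that covers the whole intron.

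Hsd3b1 and Hao2 held the most abundant members. Hsd3b1, the 3-beta-hydroxysteroid dehydrogenase that turns pregnenolone into progesterone (chromosome 3, 98852194 to 98859794, minus strand), had 8718 reads in its 4-exon model in replicate 1 and 1848 in replicate 2, which is 10271 and 3389 CPM. Its 3-exon model had 619 and 197 reads. Known spliced models of the gene had 7 and 6 reads, so 99.9% and 99.7% of its known and Suffix spliced reads were in Suffix models. The coding start lies 253 bases into the 4-exon and 63 bases into the 3-exon model, and both keep it. With only 5′ losses counted, they keep 93.4% and 92.6% of the longer transcripts, Hsd3b1-202 and Hsd3b1-201, of which the missing exon has 123 bases. The 4-exon model is 4356 and 2776 bases long in replicates 1 and 2, against 1855 for Hsd3b1-202. It ends 2624 and 1044 bases beyond the nearest annotated 3′ end, while the 3-exon model ends at an annotated one. Hsd3b1 and Hsd3b6 are close paralogs, so reads assigned between them are uncertain.

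Hao2, a peroxisomal oxidase of 2-hydroxy acids encoded close to Hsd3b1 (98874521 to 98893239, minus strand), had 1664 and 173 reads in its 5-exon model and 775 and 19 in its 4-exon model. Known spliced models of Hao2 had 53 and 12 reads. Both models lack the coding start of Hao2-201, with 482 bases missing at the 5′ end of the 5-exon and 766 of the 4-exon model. At the 3′ end both ran beyond the nearest annotated end. The 5-exon model did so by 1595 and 1589 bases in replicates 1 and 2, the 4-exon model by 1595 and 922. Hsd3b1 alone held 34.8% of all member reads in replicate 1 and 14.5% in replicate 2, and with Hao2 43.9% and 15.9%.

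**Figure D2:**
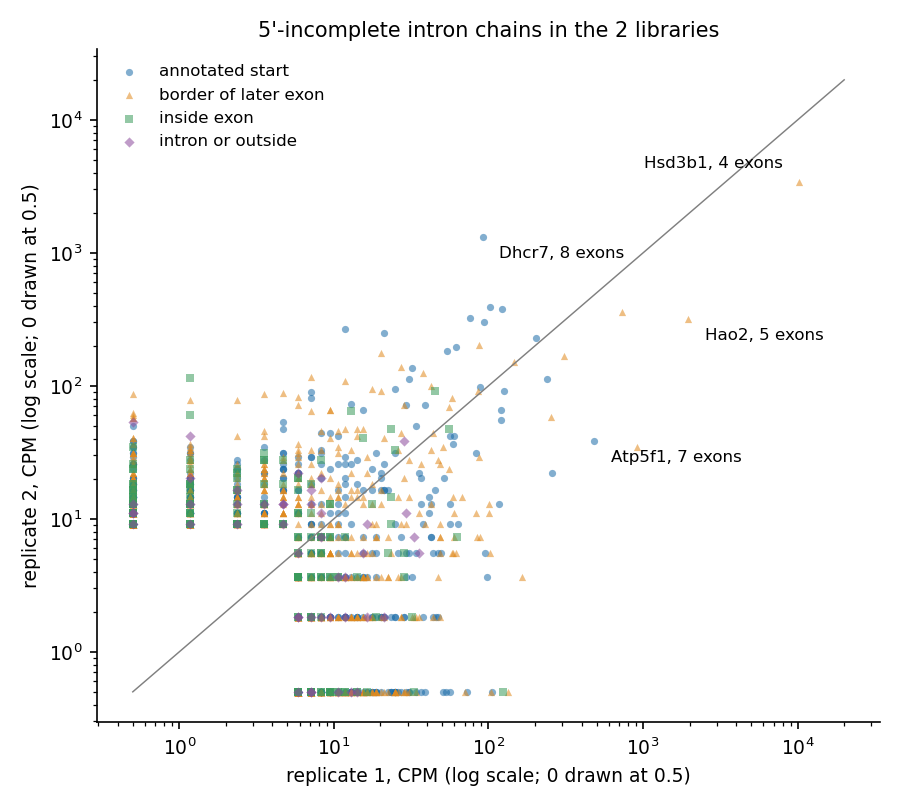
Level of intron chains in replicate 1 (x) and replicate 2 (y), in CPM on log axes with 0 drawn at 0.5. Of the 1663 chains, the 6 members in genes without annotation are not drawn. The grey line marks equal levels and the colours the class of the start. The 4-exon Hsd3b1 model lies at 10271 and 3389 CPM, and Dhcr7 far above and Atp5f1 far below the line.

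Genes of cholesterol, energy and signalling followed, with starts at annotated positions. Dhcr7, which makes cholesterol in the last step of its synthesis (chromosome 7, 143823145 to 143848410), had 78 and 713 reads in its 8-exon model, against 0 and 3 reads in known spliced models. The model lacks 1 intron of Dhcr7-201 and keeps the coding start. Atp5f1, a subunit of the mitochondrial ATP synthase stalk, had 410 and 21 reads in its 7-exon model and 0 in known spliced models of either library, where 3 counts allow up to 3.53 and 5.50 CPM. It began 312 bases inside the exon of Atp5f1-201 that it matches, at an annotated start that no coding transcript with a complete start has. Prkar1a, the regulatory subunit of protein kinase A that restrains signalling by corticotropin, had 104 and 207 reads in an 11-exon model, beside 424 and 418 known spliced reads. Slc25a3, the phosphate carrier of mitochondria, had 87 and 212 reads in a 6-exon model, beside 2021 and 260 known reads. That model runs over a whole intron and 1912 bases beyond the exon border, and the small RNA gene Gm24119 overlaps it on the same strand.

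The other chains of the abundant sets belonged to genes with a range of roles. Pld3, a lysosomal nuclease, had 171 and 125 reads in a 12-exon model, and 46 and 38 known spliced reads. Tspan12, a tetraspanin that aids Norrin signalling, had 79 and 165 reads in an 8-exon model that began 2 bases before the exon border, and 3 and 6 known reads. Serping1, the inhibitor of complement C1, had 203 and 61 reads and began 314 bases before the border. Eef1a1, the elongation factor of translation, had 64 and 177 reads in a 7-exon model, and overlaps the small RNA gene Gm26377 on the same strand. Psmc2, an ATPase of the proteasome, had 214 and 32 reads in its 12-exon model and 1 and 0 known spliced reads. Cdc42 had 125 and 82 reads in a 5-exon model that lacks the leading exon of 75 bases, and 395 and 447 known spliced reads. The coding start was kept in all of these.

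In 31 genes with at least 20 known and Suffix spliced reads in each library, over 50% of those reads were in Suffix models in both libraries. Besides those named they include Tox4, Supt5, Cadm1, Flna, Eif4g1, Fasn, Map4, Ltbp3, Tln1 and Hnrnpk. Cadm1, a cell adhesion molecule, had 59 and 51 Suffix reads and 0 known reads. Fasn, the fatty acid synthase, had 21 and 37 Suffix and 1 and 0 known reads. These genes were listed by their values, which also chose the members.

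Genes of steroid synthesis held members in 10 of 15 cases in each library, 11 in either. Outside Hsd3b1 the list held 64 intron chains. With 1 call per chain, 52 lack the coding start, 1 keeps it and 11 have no annotated longer transcript. The start of a chain, and so this call, can differ between libraries. Over all members with a complete coding start to compare, none was kept in 684 of 952 in replicate 1 (71.8%). In replicate 2 it was 574 of 836 (68.7%). Star, which carries cholesterol into mitochondria, had 74 and 110 reads in a 4-exon model that lacks 3 introns and 398 bases at the 5′ end. This model was 1072 and 2132 bases long in replicates 1 and 2, against 4046 for Star-201. It thus also ended short of the 3′ end of Star-201. The 6-exon model of Star had 73 and 50 reads. It began at an exon border in replicate 1 but 982 bases upstream, at an annotated start, in replicate 2. From there it covered the whole preceding intron. With only 5′ losses counted, it kept 100% of Star-201 in replicate 2, coding start included, though the chain is counted as lacking the coding start. At the 3′ end this model too stopped short of Star-201, at the same position as the 4-exon model in replicate 2. Known spliced models of Star had 10443 and 14204 reads. Nr5a1, the nuclear receptor that sets steroidogenic identity, had 17 and 96 reads in a 4-exon model, against 22 and 283 known reads. Cyp11b1, the 11-beta-hydroxylase and a close paralog of Cyp11b2, had 36 and 54 reads in a 6-exon model whose starts were 4 bases apart. Of the spliced reads of the list, 22.8% and 6.0% were in Suffix models, and without Hsd3b1 4.11% (interval 3.92 to 4.31) and 1.83% (1.71 to 1.96).

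Catecholamine and granule genes held members in 9 of 16 cases in each library, 10 in either, with 6.28% and 2.78% of spliced reads in Suffix models. Of their 33 chains, with 1 call per chain, 27 lack the coding start and 2 keep it. Over all members of replicates 1 and 2 with a complete coding start to compare, 71.8% and 68.7% kept none. Chgb, a granin of chromaffin granules, had 261 and 92 reads in a 2-exon model that keeps the large coding exon but not the coding start. A 4-exon model of Chgb had 5 and 39 reads. Slc18a1, the vesicular transporter of monoamines in chromaffin cells, had 33 and 39 reads in a 16-exon model and 4 and 0 known spliced reads. Scg2 had 47 and 26 reads in a 2-exon model that began 946 bases inside the exon in replicate 1 and at its border in replicate 2. Npy, a neuropeptide, had 51 and 23 reads in a 3-exon model that begins at the annotated start and covers the whole leading intron. Chga had 72 and 4 reads in a 2-exon model, so it was selected in replicate 1 only.

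Among 13 genes known for alternative promoters, Gnas was the one with members. Its gene makes the stimulatory G protein alpha subunit and other imprinted transcripts from several promoters (chromosome 2, 174284320 to 174346744). A 12-exon Gnas model had 103 and 36 reads, began at the annotated start furthest upstream and covered a whole intron of Gnas-211. The other 6 members were selected in replicate 1 alone, and the 5 of highest mean CPM among them had 5 to 10 reads there and 0 to 2 in replicate 2. The small RNA genes Gm27849, Gm27869 and Gm27899 overlap Gnas on the same strand.

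Within a gene, reads were concentrated on 1 break or spread over many. A single member was held by 511 of 656 and 502 of 639 genes, 3 or more by 77 and 54, and the most by Eef2 with 11 in replicate 1 and Acly with 16 in replicate 2. Eef2 is a translation elongation factor and Acly makes cytosolic acetyl-CoA. The most read member took a median of 70.3% and 69.2% of the Suffix reads of its gene, and over 90% in 171 and 142 genes. The counts that follow are of Suffix reads with an annotated longer transcript, since for others the missing introns cannot be counted. Missing introns are counted at the fewest over all annotated longer transcripts, short ones included. Dhcr7 was of the concentrated kind, with 1 intron missing in 81.6% of 103 reads and 81.2% of 883. Cyp11a1, the side-chain cleavage enzyme that starts steroid synthesis, was of the spread kind: 1 to 7 introns were missing in 41, 52, 43, 17, 85, 9 and 47 of 294 reads in replicate 1. In replicate 2 there were 75 such reads, 38 of them lacking 7 introns. Cyp11b1 lacked 7 introns in 29.0% of 245 reads in replicate 1 and in 3.95% of 152 in replicate 2. For Star the break after 3 introns held 25.1% of 295 and 56.6% of 196 reads. Eef1a1 lacked 1 intron in 41.8% of 249 reads and in 91.4% of 197. Of the Eef1a1 reads counted as lacking 1 intron, 40 in replicate 1 and 3 in replicate 2 were of a model that keeps only 1 intron.

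**Figure D3:**
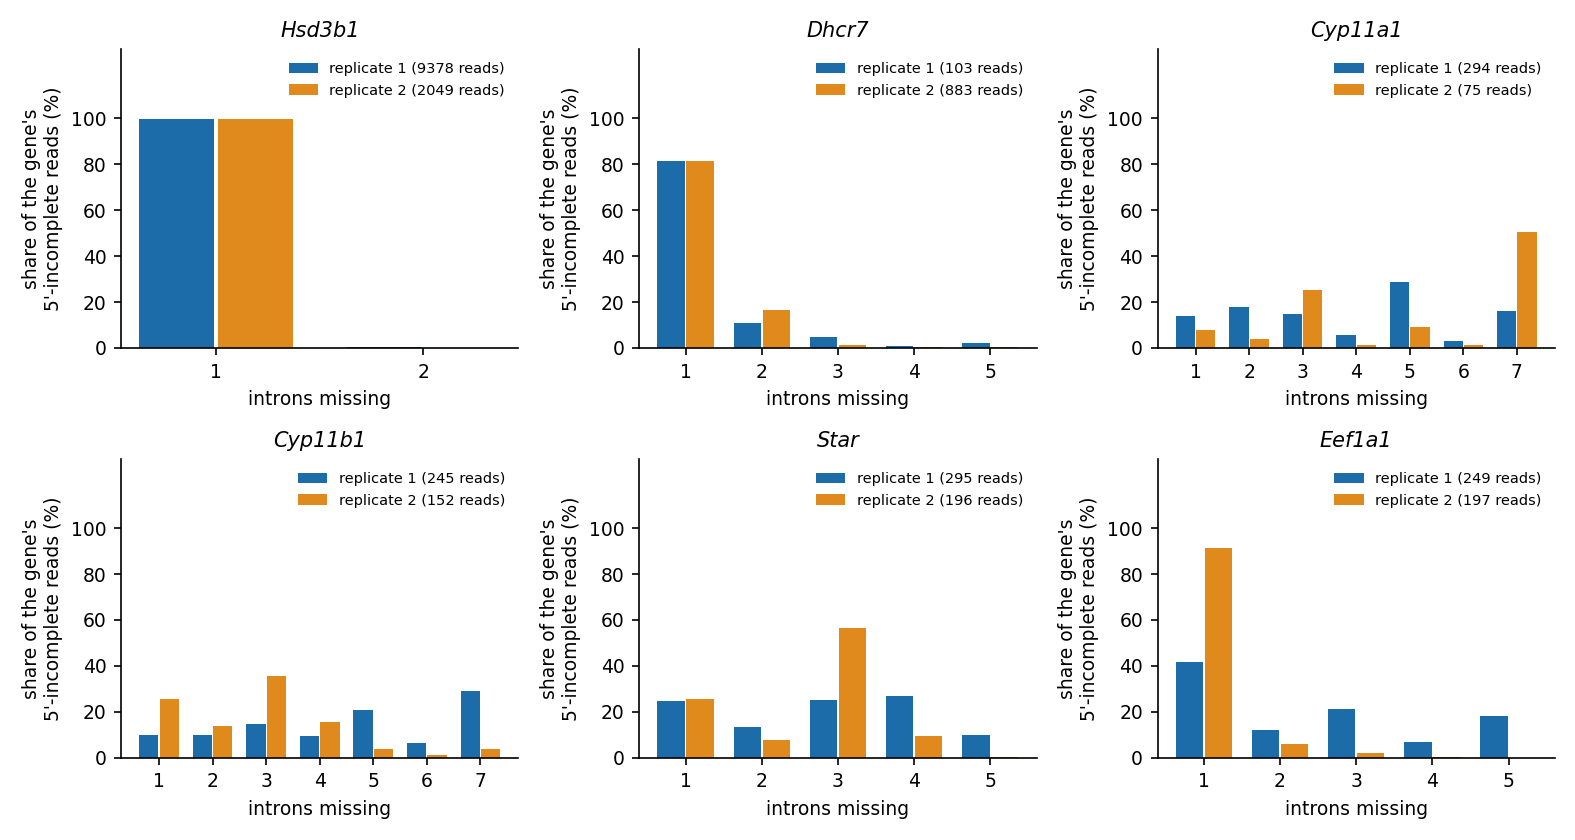
Reads of 5′-incomplete spliced models by the number of introns missing, as percent of those reads of the gene in a library that have an annotated longer transcript, for 6 genes; bars are libraries and legends give these reads. Missing introns are counted at the fewest over annotated longer transcripts. Hsd3b1 and Dhcr7 are concentrated at 1 missing intron in both libraries, while Cyp11a1, Cyp11b1 and Star are spread over up to 7.

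Among annotated transcripts of at least 3 exons, the share of reads in Suffix models was highest for the largest. Without Hsd3b1 and Hao2, Suffix models took 1.78% and 3.86% of known and Suffix spliced reads of transcripts with 3 to 5 exons, 4.85% and 5.13% with 6 to 10, and 11.6% and 7.16% with 11 to 20. At 21 exons or more they took 48.9% (interval 47.9 to 49.96) and 25.5% (24.9 to 26.0). By length the libraries were alike at the long end, with 19.1% and 19.6% from 6000 bases on. At the short end they were not: below 1000 bases the share was 1.78% in replicate 1 and 9.06% in replicate 2. In replicate 1 the share rose with each class of length, while in replicate 2 it was lowest from 1500 to under 2000 bases, at 4.31%.

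**Figure D4:**
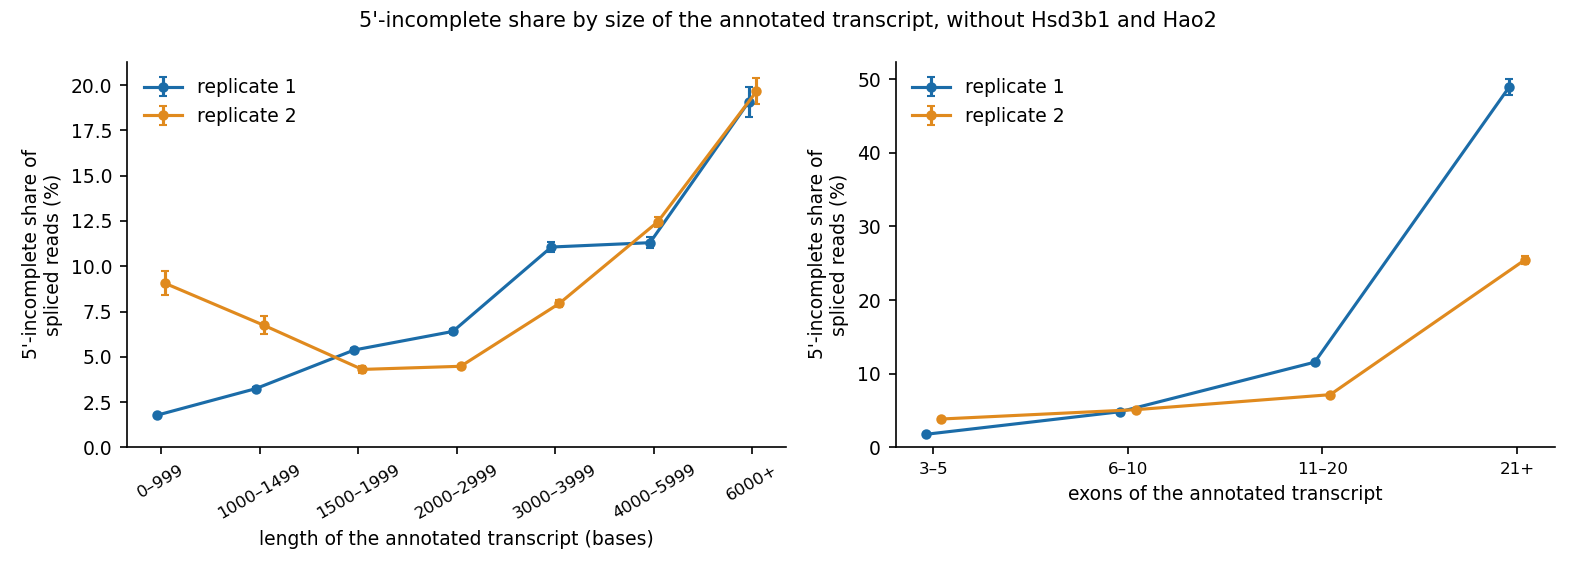
Percent of known and Suffix spliced reads that were in 5′-incomplete models, by length (left, bases) and exon number (right) of the annotated transcript, without Hsd3b1 and Hao2; points are libraries and bars exact 95% intervals. Transcripts of 21 exons or more reach 48.9% in replicate 1 and 25.5% in replicate 2.

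Members were a small share of Suffix models and a large share of their reads. Of 15250 and 14708 spliced Suffix models, 70.5% and 70.8% had a single read, and members were 6.65% and 6.11% but held 58.3% and 42.8% of the reads. Members took 4.27% and 3.37% of known and Suffix spliced reads (mean 3.82% ± 0.635 SD, n = 2), and without Hsd3b1 and Hao2 2.44% and 2.85%, so that replicate 1 is the higher only with these genes. Just inside the minimum lay 249 and 226 models with exactly 5 reads, and just outside 389 and 404 with exactly 4.

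The other library, which was not used to choose a member, was searched for its intron chain, and 1 read there counted as found. The chain was found among the spliced Suffix models of replicate 2 for 645 of 1014 members of replicate 1 (63.6%, interval 60.6 to 66.6), and in replicate 1 for 622 of 899 members of replicate 2 (69.2%, 66.1 to 72.2). With at least 5 reads required there, the minimum that members themselves had to reach, the mean of both shares was 26.2% in place of 66.4%. At 1 read or more the chain was found for 57.6% and 62.6% of members with 5 to 9 reads and for 16 of 18 and 13 of 13 with 100 reads or more. Members were found again in 64.4% and 73.2% at annotated starts, 62.6% and 66.8% at exon borders and 64.5% and 64.7% inside exons. For the few that began in an intron or outside every exon it was 23 of 29 (79.3%) and 23 of 28 (82.1%). Of the 369 and 277 members not found, 249 and 198 lay in genes with at least 20 reads in the other library. Among the most read of these were a 6-exon C4a model with 114 reads and a 4-exon Ecm1 model with 105 reads in replicate 1, and a 16-exon Sec24c model with 47 reads in replicate 2, each with 0 reads in the other. These 3 were chosen after their values were seen, and C4a is a near-identical copy of C4b.

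**Figure D5:**
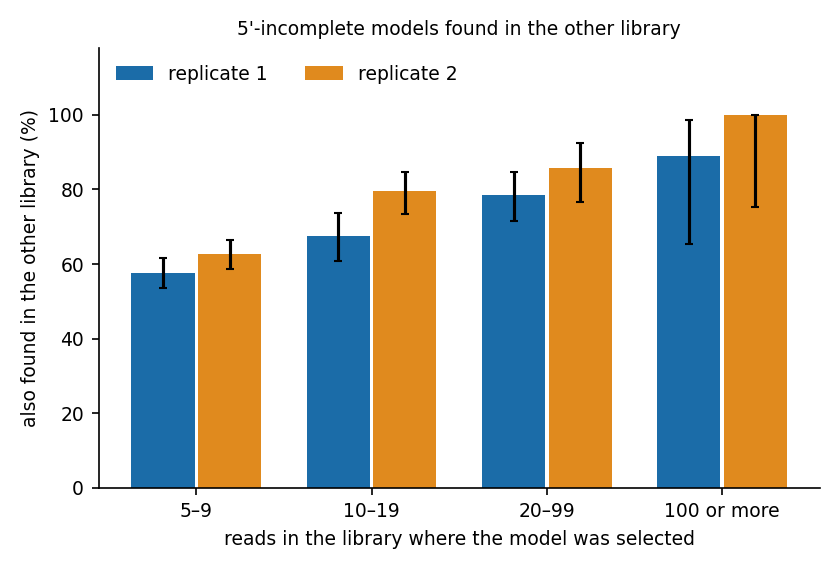
Percent of 5′-incomplete models of a library whose intron chain was found in the other library, by reads in the library where the model was selected; bars are libraries and error bars exact 95% intervals. The share is 57.6% and 62.6% at 5 to 9 reads and 88.9% in replicate 1 at 100 reads or more, where all 13 models of replicate 2 were found.

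Starts were compared among chains with identical introns. Of 250 chains selected in both libraries, 170 had identical starts (68.0%, interval 61.8 to 73.7), 192 starts within 100 bases (76.8%, 71.1 to 81.9) and 214 within 500 bases (85.6%). Chains at an exon border in both libraries had the same start in 93 of 96 cases, and chains at an annotated start in both in 69 of 93. In 19 chains the start was on no annotated position in either library, and 7 of these had the same start and 14 lay within 100 bases. The class of the start was the same in 208 of the 250. The 3′ ends were identical in 190 of 250 chains (76.0%).

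Differences of the Suffix share of a gene between the libraries were tested on 2074 genes, each with 20 or more reads of Suffix and known spliced models per library. Reads of Suffix models were set against known spliced reads in Fisher's exact test, two-sided. The test compares these libraries and not conditions. With Benjamini-Hochberg adjustment, 256 genes passed at 0.05 (12.3%), 48 of them higher (2.31%) and 208 lower (10.03%) in replicate 2. With only Suffix models of at least 5 reads counted, 150 genes passed and 109 were lower, and with at least 50 reads required per library 31 were higher. Of the genes that held a member, 556 were tested, 36 were higher and 143 lower in replicate 2. The same reads chose the members, so nothing is read from that count. The median Suffix share was 2.98% in replicate 2 and 4.55% in replicate 1 over all genes tested, and 7.96% in replicate 2 and 11% in replicate 1 over genes with a member.

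Among genes that held a member, the 5 largest differences past the threshold in each direction were as follows. Higher in replicate 2 was Ddrgk1, a factor of the UFM1 pathway, with 25 of 32 reads in Suffix models there and 20 of 303 in replicate 1 (78.1% and 6.60%, adjusted p by Fisher's exact test 2.15e-17). The others were Pgls (57.1% in replicate 2 and 2.13% in replicate 1), Cmtm3 (16 of 32 reads and 1 of 64), Ptp4a2 (73.1% and 30.8%) and Slc25a3 (46.8% and 5.52%). With all spliced models as denominator, the difference was 41.1 in place of 71.5 percentage points for Ddrgk1 and 18.2 in place of 41.3 for Slc25a3, and both still passed. Lower in replicate 2 was the imprinted noncoding RNA Meg3, with 9.71% there and 85.5% in replicate 1. The others were the catenin Ctnnb1 (14.9% in replicate 2 and 77.6% in replicate 1), the natriuretic peptide receptor Npr1 (14.7% and 69.4%), the poly(A)-binding protein Pabpc1 (2.94% and 57.1%) and Dbh, which makes noradrenaline (2.87% and 55.6%). Meg3, Ctnnb1 and Pgls overlap other genes on the same strand.

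In the steroidogenesis list 12 genes were tested: 0 were higher and 8 lower in replicate 2. Over all 2074 genes tested, 2.31% were higher and 10.03% lower. The median difference of replicate 2 minus replicate 1 was −3.11 percentage points in the list. It was −1.17 over all genes tested and −2.54 over tested genes with a member. The lower genes of the list were Cyp11a1, Cyp11b1, Cyp21a1, Fdxr, Nr5a1, Por, Scarb1 and Star. Genes with many reads can pass at small differences, as Star did at −1.39 points. Por, the electron donor of microsomal cytochromes, stood at 5.03% in replicate 2 and 29.5% in replicate 1, a difference of −24.5 points that was −12.0 with only Suffix models of at least 5 reads. Hsd3b1 differed by −0.22 points and did not pass (adjusted p by Fisher's exact test 0.113). In the catecholamine list 9 were tested, with Npy higher at 19.4% in replicate 2 and 2.30% in replicate 1, and Chga, Chgb, Cpe and Dbh lower. The median difference of that list was −1.60 points. Of the genes with alternative promoters 2 were tested and Gnas was lower, at 9.25% in replicate 2 and 24.9% in replicate 1.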

How the data were processed

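The authors deposited whole read counts per transcript model, not normalized, for each library, with an annotation of all models. The labels give genome build mm10, and the 141862 annotated transcripts of GENCODE M21 had identical exons in both deposited annotations. The source column of the deposited annotation names TALON for unannotated models. The aligner was not given in the sources used here. Library totals were 848782 and 545229 reads, and CPM are counts scaled to 1000000 reads. The length column of the deposited tables, in bases, was used for the length of models.

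Chains were matched by chromosome, strand and all introns. A longer transcript was an annotated transcript whose last introns equal those of the model. Start classes used a window of 100 bases around starts of the same gene. Shares carry exact Clopper-Pearson 95% intervals from Python 3.11.15 with scipy 1.17.1. Fisher's exact test, adjusted by the Benjamini-Hochberg method, ran over all genes with at least 20 reads in each library, and was checked on simulated data. The simulated reads held counting error only, so the check cannot show how the test handles other variation between libraries. Letters at starts were planned from a genome; none was used here, and GENCODE transcripts and RefSeq promoters took its place, so starts in introns were not read.

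The genes named were, by mean CPM, the 10 highest chains, the 8 highest in both libraries over 500 bases from an annotated start, the 8 highest within 100 bases of one and at most 6 per gene list, and the 5 genes with a member and the largest difference of share past the threshold in each direction. The members, lists and tests were chosen with earlier results of these data known. Alternatives changed the read minimum, the match, the window, the longer transcript chosen, the weights, the denominators and the library left out.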

Additional observations from a re-analysis of the deposited data

How the results depend on the processing

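No paired analysis was possible because there is 1 group of 2 libraries. Fisher's test could not be run without a library, so leaving one out gives the value of the other. Members per library averaged 957 with at least 5 reads, 2152 at 3 and 350 at 10 reads, and 899 to 1014 with 1 library left out. The share found in the other library averaged 66.4% and became 50.2% when starts also had to lie within 100 bases, 26.2% with at least 5 reads there and 77.6% for members of at least 10 reads; with 1 library left out it was 63.6% to 69.2%. The share at an annotated start averaged 35.0% and became 39.2% within 500 bases, 40.8% for members of at least 10 reads and 31.3% by reads, or 44.5% by reads without Hsd3b1 and Hao2, an alternative chosen after seeing the data; it was 34.0% to 36% with 1 library left out. The median of 2 missing introns became 1 by reads and was 2 with either library left out. Starts within 10 bases between libraries were 69.6% and within 500 bases 85.6%. The member share of spliced reads averaged 3.82% and became 7.60% with all Suffix models and 2.64% without Hsd3b1 and Hao2, again chosen after seeing the data; it was 3.37% to 4.27% with 1 library left out. Genes called numbered 150 against 256 when only Suffix models of at least 5 reads were counted, 109 against 208 of them lower in replicate 2, and 31 against 48 were higher when at least 50 reads were required. The cause of these differences was not tested. Of the single genes named, Hao2 no longer passed when genes with 1 read entered the adjustment (adjusted p by Fisher's exact test 0.103, and 4.97e-06 to 0.046 in the others), and Hsd3b1 passed with all spliced models as denominator (0.0341, and 0.0728 to 0.293 in the others).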
